A study of Homo sapiens with 20 samples.

Results

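The 37 genes of the human mitochondrial genome were described in 20 RNA-seq libraries. They are the 37 rows, of 60656 in the count table, whose symbol starts with MT-, and they comprise 13 mRNAs, 22 tRNAs and 2 rRNAs. All samples are labelled SW1990, a long-established line of human pancreatic cancer cells, and the series speaks of a mouse model of that cancer. The labels give 4 treatments of traditional Chinese medicine with 5 samples each: clearing Heat and removing Dampness (here heat-clearing), strengthening spleen with regulating qi (spleen-strengthening), nourishing yin with eliminating heat (yin-nourishing) and activating blood with removing stasis (blood-activating). Herbs, doses, durations, host strain and an untreated group are named in none of the sources used here, so every comparison is between treatments. The sources do not say whether the 5 samples of a treatment are separate tumours, animals or cultures, so p-values measure the spread between these samples, which may be technical. Total RNA was extracted with TRIzol, rRNA was removed and the library kit keeps the strand, per the labels. The level of the 2 mitochondrial rRNAs is therefore what remained after rRNA removal, and whether that step targeted them is not stated.

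The mitochondrial genome is a small circle that encodes core subunits of the respiratory chain and ATP synthase, together with the rRNAs and tRNAs needed to translate them inside the organelle. Both strands are copied into long precursors by a dedicated RNA polymerase, and most mRNAs and rRNAs are released when the tRNAs that lie between them are cut out at both ends. The precursor of the plus strand of the annotation carries both rRNAs, most tRNAs and nearly all mRNAs, whereas that of the minus strand carries MT-ND6 and the remaining tRNAs. Steady levels of neighbouring RNAs can still differ widely, since each is stabilised and degraded on its own after cutting. In the annotation used here (GENCODE release 29, build hg38) 28 of the 37 genes lie on the plus strand and 9 on the minus strand.

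The sequences of the 8 minus-strand tRNAs are shown because their levels did not move as 1 block, and those of MT-TF and MT-TV because they stand directly on either side of the small-subunit rRNA gene. Each is written 5′ to 3′ as DNA on its own strand, from the GENCODE release 29 transcripts, with the anticodon in capitals. From the top they carry glutamine (chrM:4329-4400), alanine (chrM:5587-5655), asparagine (chrM:5657-5729), cysteine (chrM:5761-5826), tyrosine (chrM:5826-5891), serine (chrM:7446-7514), glutamate (chrM:14674-14742) and proline (chrM:15956-16023) on the minus strand. MT-TF (phenylalanine, chrM:577-647) and MT-TV (valine, chrM:1602-1670) lie on the plus strand.
MT-TQ: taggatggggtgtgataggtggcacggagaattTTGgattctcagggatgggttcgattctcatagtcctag
MT-TA: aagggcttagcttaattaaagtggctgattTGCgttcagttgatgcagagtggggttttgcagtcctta
MT-TN: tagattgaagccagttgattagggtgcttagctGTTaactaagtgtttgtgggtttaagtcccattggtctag
MT-TC: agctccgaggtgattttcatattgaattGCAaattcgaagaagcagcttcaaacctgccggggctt
MT-TY: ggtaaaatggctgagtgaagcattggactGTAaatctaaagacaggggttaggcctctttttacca
MT-TS1: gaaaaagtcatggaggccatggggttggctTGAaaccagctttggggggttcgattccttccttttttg
MT-TE: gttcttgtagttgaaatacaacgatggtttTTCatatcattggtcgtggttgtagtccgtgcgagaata
MT-TP: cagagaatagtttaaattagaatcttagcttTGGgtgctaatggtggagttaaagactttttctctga
MT-TF: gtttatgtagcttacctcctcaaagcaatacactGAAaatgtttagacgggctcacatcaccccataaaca
MT-TV: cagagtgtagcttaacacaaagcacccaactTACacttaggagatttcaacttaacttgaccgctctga

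The tRNA genes are 59 to 75 bases long, so the counts cannot tell a mature tRNA from an uncut precursor or from a read that reaches in from a neighbour. MT-TA, MT-TN, MT-TC and MT-TY form a cluster between MT-TW and MT-CO1. A gap of 31 bases between MT-TN and MT-TC holds the light-strand origin of replication, and MT-TC and MT-TY share 1 base. MT-ATP8 and MT-ATP6 overlap by 46 bases and MT-ND4L and MT-ND4 by 7, and each of these pairs is known to be carried on 1 shared mRNA. The gene of MT-TS1 lies opposite the end of the MT-CO1 mRNA, and that of MT-ND6 lies next to MT-ND5 on the other strand. Whether counting used the strand is not given in the sources used here, so reads of such opposite partners may not have been told apart.

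Libraries held 81.7 to 135 M counts (M, mega), and all 37 mitochondrial genes were among the 24790 rows that passed the filter on low counts. Levels are given as counts per M (CPM), normalised by the trimmed mean of M-values (TMM) unless called CPM of the column total. In 5 libraries, heat-clearing 01 and 02 and blood-activating 01, 08 and 09, the small nuclear RNA RN7SK, a regulator of transcription elongation, made up 5.25 to 7.38% of all counts. In the other 15 it made up 1.57 to 3.02%, so the nearest libraries on either side of the 5% mark were spleen-strengthening 07 at 3.02% and heat-clearing 01 at 5.25%. Sample titles end in the letter b (13 libraries) or C (7), which is not explained. The letter C belongs to heat-clearing 02, 07 and 09, spleen-strengthening 07, yin-nourishing 05 and blood-activating 04 and 06. Summed levels of 8 ductal epithelial markers, none at 0 in every library, were 1970.2 to 3440.2 CPM of the column total and those of 18 acinar markers 3.51 to 1019. Summed levels of 14 stromal, endothelial and myeloid markers were 88.4 to 158, of 6 skeletal muscle markers, 2 of them at 0 in every library, 0 to 0.569, and of 5 islet markers 0 to 11.3. Values per sample below follow the title numbers: 01, 02, 03, 07 and 09 for heat-clearing, 02, 05, 06, 07 and 08 for spleen-strengthening, 01, 04, 05, 07 and 10 for yin-nourishing, and 01, 04, 06, 08 and 09 for blood-activating.

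Nearly all mitochondrial counts came from the mRNAs. Per length of gene, the highest mean level over 20 libraries was that of MT-ATP8, a small subunit of ATP synthase, at 50590.4 CPM per kb, followed by the cytochrome c oxidase subunit MT-CO2 at 42408 and the catalytic subunit MT-CO1 at 28552. The lowest mRNA was MT-ND3, a subunit of complex I, at 976 CPM per kb, while the next lowest, MT-ND1, stood at 5089. MT-ND6, the only mRNA of the minus strand, reached 15267 CPM per kb against 8423 for its plus-strand neighbour MT-ND5. Reads of MT-ATP8 in the 46 shared bases can belong to MT-ATP6, so its level per length is uncertain.

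Per length, the rRNAs and tRNAs lay below every mRNA except MT-ND3, which MT-TS1 and MT-TC exceeded. MT-RNR1, the small-subunit rRNA, had 235 CPM per kb and MT-RNR2, the large-subunit rRNA, 226. The 4 tRNAs with the highest mean level per length were all on the minus strand: MT-TS1 at 1328, MT-TC at 1066, MT-TY at 926 and MT-TN at 650.0 CPM per kb. The highest plus-strand tRNA was MT-TL2, a leucine tRNA, at 340.0, and the lowest of all was MT-TF at 83.4. The share of mitochondrial counts that came from the 9 minus-strand genes was 3.85 to 5.62% over the 20 libraries, most of it MT-ND6.

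The classes also differed in how much their members varied between samples of a treatment. The median within-treatment SD of log2 CPM was 0.30 for the 13 mRNAs, 0.60 for the 8 minus-strand tRNAs, 0.95 for the 14 plus-strand tRNAs and 1.48 for the rRNAs. Over all 24790 tested rows it was 0.60. The mRNAs were thus steadier, and the rRNAs and plus-strand tRNAs more variable, than the median row of the table. This spread also depends on the level of a row, and rows of similar level were not compared.

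The rRNAs varied most as a class. MT-RNR1 stood at 56.7, 17.2, 572, 12.5 and 305 CPM in the heat-clearing libraries, 129, 523, 444, 127 and 627 in the spleen-strengthening, 82.9, 30.99, 55.6, 188 and 400.2 in the yin-nourishing and 76.3, 229.7, 296, 162 and 139 in the blood-activating ones. Heat-clearing held both the lowest library, 07, and the second highest, 03. The highest, spleen-strengthening 08, exceeded the lowest 50.2-fold. MT-RNR2 was at 86.9, 50.8, 846, 53.1 and 824 CPM in the heat-clearing libraries, 193, 719, 630.2, 263 and 918 in the spleen-strengthening, 122, 56.7, 103, 272 and 585 in the yin-nourishing and 110.3, 316, 427, 245 and 218 in the blood-activating ones. It followed the order of MT-RNR1 in most libraries, but its count per MT-RNR1 count was 4.25 in heat-clearing 07, 2.96 in heat-clearing 02, 2.70 in heat-clearing 09 and 2.07 in spleen-strengthening 07, and 1.37 to 1.86 in the other 16. These are the 4 highest ratios, and all 4 libraries carry the title letter C. Yin-nourishing 05 and blood-activating 04 and 06 also carry C but were at 1.86, 1.38 and 1.44, among the other libraries. MT-TF and MT-TV, the tRNAs at the ends of MT-RNR1, varied alongside it: their summed counts were 9.53 to 42.8 per 1000 rRNA counts while MT-TF alone ranged 87.6-fold and MT-TV 82.6-fold. The lowest of these ratios, 9.53 and 10.4, came from heat-clearing 02 and 07, and the third lowest, 17.96, from heat-clearing 09.

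**Figure D1:**
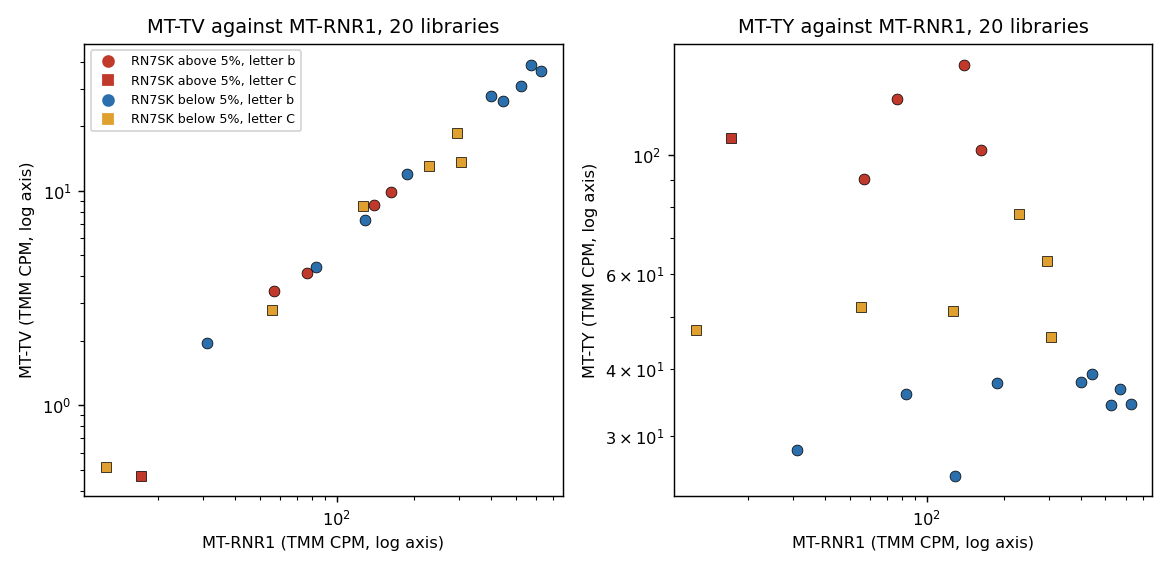
MT-TV (left) and MT-TY (right) against MT-RNR1 in TMM-normalised CPM on log axes, 1 point per library (red: RN7SK above 5%, other colours: below, circles: title letter b, squares: C). MT-TV rises with MT-RNR1 over its whole range of 12.5 to 627 CPM, whereas MT-TY lies at 90.4 CPM or more in the 5 RN7SK-high libraries and at 77.9 or less in the others, with no such course.

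The first question of the design was whether mitochondrial RNA differed between the treatments. The 13 mRNAs together made up 15.96 ± 3.97% of the column total in heat-clearing, 20.9 ± 2.44% in spleen-strengthening, 20.4 ± 1.07% in yin-nourishing and 16.8 ± 3.83% in blood-activating samples (mean ± SD, n = 5 each). The lower means of heat-clearing and blood-activating came with their RN7SK-high libraries: without these, the mRNA share was 17.1 to 19.9% in 3 heat-clearing and 18.97 to 22.3% in 2 blood-activating libraries. In spleen-strengthening it was 17.2 to 23.2% and in yin-nourishing 18.9 to 21.6%, so the RN7SK-low libraries of the 4 treatments overlapped. In bulk RNA, fewer cells of a kind and less mitochondrial RNA per cell cannot be told apart.

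Plus-strand tRNAs summed to 162 ± 142 CPM of the column total in heat-clearing, 287 ± 118 in spleen-strengthening, 194 ± 123 in yin-nourishing and 196 ± 81.7 in blood-activating samples (mean ± SD, n = 5). Minus-strand tRNAs summed to 344 ± 68.7, 301 ± 57.7, 275 ± 80.99 and 479.6 ± 50.3 CPM in the same order. The 5 blood-activating sums, 435 to 559.6 CPM, all lay above those of the spleen-strengthening and yin-nourishing libraries (208 to 347 and 166 to 344), and 1 heat-clearing library, 02, reached into their range at 444. The 2 rRNAs summed to 571 ± 657, 895 ± 521, 365 ± 342 and 446 ± 198 CPM, and the ranges of all 4 treatments overlapped. A sum over members carries no test here.

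**Figure D2:**
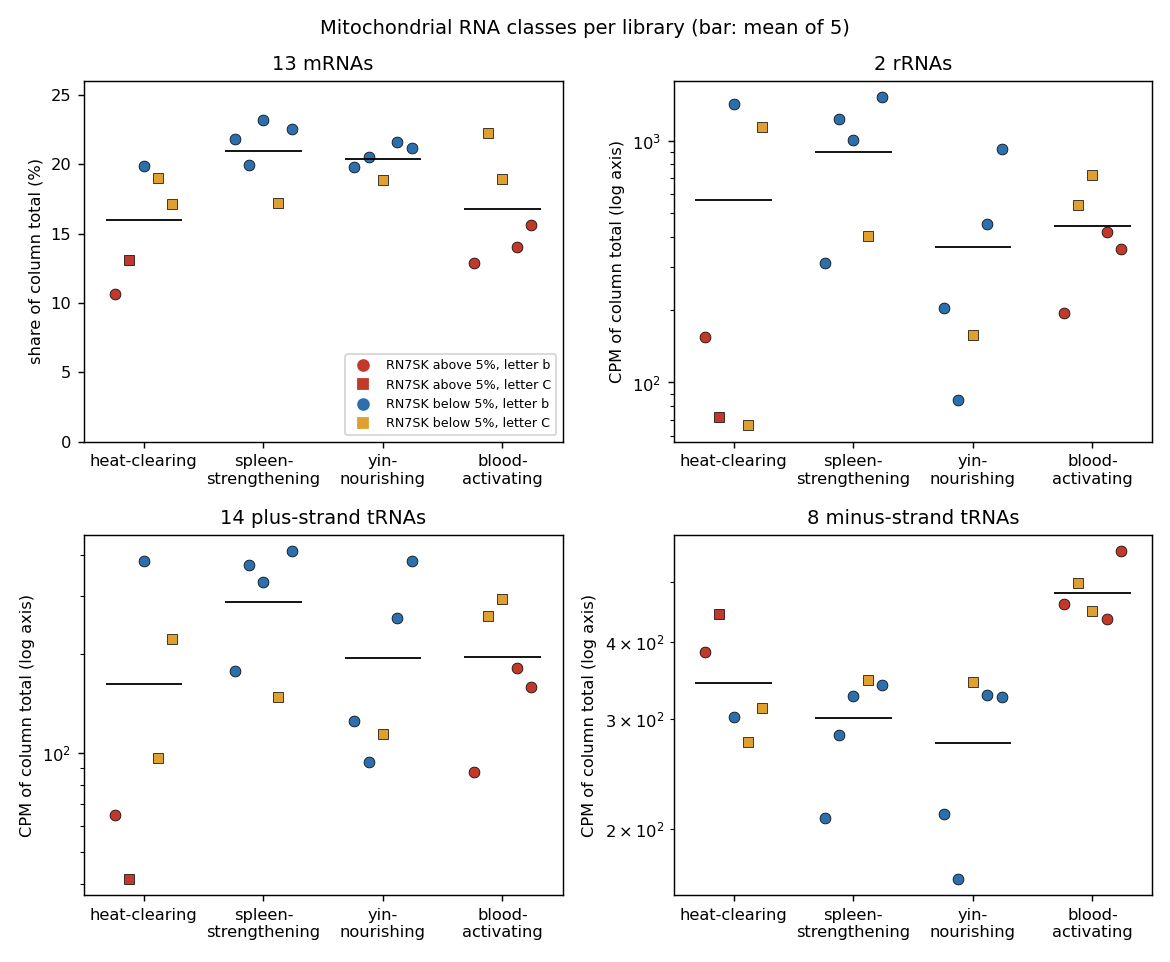
Summed level of the 13 mRNAs (percent of the column total) and of the 2 rRNAs, 14 plus-strand tRNAs and 8 minus-strand tRNAs (CPM of the column total, log axes) by treatment, 1 point per library and a bar at the mean of 5. The 5 RN7SK-high libraries (red) have the 5 lowest mRNA shares, 10.6 to 15.6%, while the rRNA sums overlap between all treatments.

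No mitochondrial gene passed the joint test of the 4 treatments. With edgeR's quasi-likelihood test adjusted over all rows, 0 of 37 members and 0% of all rows were called, and at an unadjusted p under 0.05 there were 8 of 37 members beside 15.4% of all rows. DESeq2 called 3 of the 37 and limma voom 8, and edgeR called 4 when heat-clearing 03 was left out. The share of all rows called in these 3 fits is not given here, so their counts have no background. The 3 smallest p-values were those of MT-TY, MT-TC and MT-TN, each with an adjusted p of 0.172, the smallest of any mRNA was that of MT-ND3 (0.198), and the rRNAs were at 0.847 or more.

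MT-TY, the tyrosine tRNA, was at 90.4, 108, 36.7, 47.2 and 45.8 CPM in the heat-clearing libraries, 25.3, 34.2, 39.04, 51.1 and 34.3 in the spleen-strengthening, 35.9, 28.2, 52.1, 37.7 and 37.7 in the yin-nourishing and 128, 77.9, 63.4, 102 and 148 in the blood-activating ones. The 5 blood-activating libraries all lay above every spleen-strengthening and yin-nourishing library, and the 2 RN7SK-high heat-clearing libraries lay among them. Within blood-activating, the 3 RN7SK-high libraries were the highest, but 04 and 06, at 77.9 and 63.4 CPM, exceeded the other 13 RN7SK-low libraries, of which the highest was yin-nourishing 05 at 52.1. Both carry the title letter C, as do the next highest RN7SK-low libraries, yin-nourishing 05, spleen-strengthening 07 and heat-clearing 07 and 09. All RN7SK-low libraries with the letter b were lower, so treatment and letter cannot be told apart for 04 and 06. MT-TC, for cysteine, and MT-TN, for asparagine, were likewise above every spleen-strengthening library in all 5 blood-activating ones, at 78.8 to 159 and 58.4 to 105 CPM in blood-activating and 29.5 to 61.4 and 17.99 to 44.9 CPM in spleen-strengthening libraries. The fitted log2 difference of spleen-strengthening minus blood-activating was -1.50 for MT-TY, -1.33 for MT-TC and -1.33 for MT-TN, and each had an adjusted p of 0.0835 (edgeR).

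MT-ND3 stood at 422, 469.9, 269, 300.0 and 342 CPM in the heat-clearing libraries, 234, 285, 317, 298 and 341 in the spleen-strengthening, 346, 271, 307, 251 and 285 in the yin-nourishing and 297, 467, 409, 399 and 444 in the blood-activating ones. Its highest values were spread over RN7SK-high heat-clearing libraries and both kinds of blood-activating library, and 4 of the 5 blood-activating values exceeded every spleen-strengthening and yin-nourishing one. The fitted log2 difference was -0.45 for spleen-strengthening minus blood-activating (adjusted p = 0.103) and -0.47 for yin-nourishing minus blood-activating (adjusted p = 0.143). Neither passed.

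In the 6 pairs of treatments 0 of 37 members were called by edgeR, where the background was 0.00807% of all rows for heat-clearing against spleen-strengthening and 0% for the other 5 pairs. At an unadjusted p under 0.05, heat-clearing minus spleen-strengthening had 11 members lower and 3 higher, beside 3.03% and 8.44% of all rows. Of the 11, 9 were mRNAs, and the 3 higher ones were MT-TN, MT-TC and MT-TY. Heat-clearing minus yin-nourishing had 8 lower and 3 higher (background 3.2% and 7.07%). Spleen-strengthening minus blood-activating had 4 lower and 5 higher (12.2% and 8.28%), and yin-nourishing minus blood-activating 5 and 5 (10.5% and 7.74%). Heat-clearing minus blood-activating had 3 lower and 0 higher (1.06% and 0.795%), and spleen-strengthening minus yin-nourishing had 0 and 0 (2.05% and 2.66%). These pairs share libraries, so their counts are not independent. DESeq2 called 5 members and limma voom 10 in spleen-strengthening against blood-activating, and 4 and 12 in yin-nourishing against blood-activating. For these tools, and for the fits with a library left out, the share of all rows called is not given. Their counts therefore have no background. With edgeR, 2 members were called in spleen-strengthening against blood-activating without heat-clearing 02 and 3 without heat-clearing 03 or blood-activating 04, and 3 in yin-nourishing against blood-activating without blood-activating 04. Leaving out the 5 RN7SK-high libraries left 0 members called in the test among treatments and in each pair.

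The second comparison set the 5 RN7SK-high libraries against the 15 others within treatments, which only heat-clearing (2 against 3) and blood-activating (3 against 2) inform. RN7SK-high libraries had lower levels of many mitochondrial genes: 19 of 37 were called lower and 3 higher, where 9.69% of all rows were lower and 10.5% higher. The median log2 difference of the 37 was -1.17 and that of all tested rows 0.01. Other measures moved with the same split. The ductal marker sum was 2849 to 3440.2 CPM of the column total in RN7SK-high and 1970.2 to 2683 in RN7SK-low libraries, with 4 of 8 markers higher. The acinar sum was 5.92 to 70.8 against 3.51 to 1019 with 0 of 18 called, although all 18 differences were negative (median -3.02), and the stromal, endothelial and myeloid sum 118 to 158 against 88.4 to 123 with 1 of 14 higher. RPPH1, the RNA of nuclear RNase P, was higher by 1.66 on the log2 scale and RMRP, the RNA of RNase MRP, fell by 0.81. The part of these differences in the mitochondrial result was not tested.

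**Figure D3:**
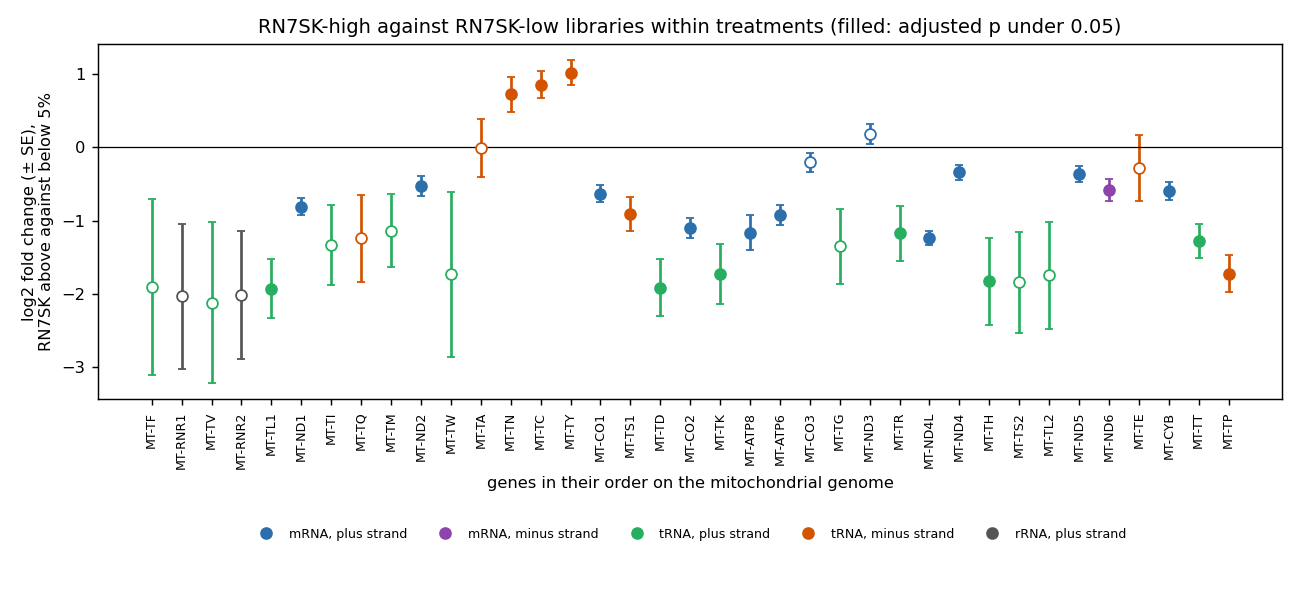
Fitted log2 difference of RN7SK-high minus RN7SK-low libraries within treatments, with its SE, for the 37 genes in genome order (filled: adjusted p under 0.05 by edgeR, colours: class and strand). The plus-strand tRNAs lie at -1.14 to -2.12, most mRNAs between -0.34 and -1.24, and the minus-strand tRNAs MT-TN, MT-TC and MT-TY stand above 0.

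Among the mRNAs, 11 of 13 were lower and none was higher, with a median of -0.60. Of the 7 complex I subunits, which pass electrons from NADH, 6 fell. MT-ND4L had the smallest p of any member, with a log2 difference of -1.24 (SE 0.101, adjusted p = 1.14e-08). It stood at 1542, 1864, 4435, 4427 and 4089 CPM in the heat-clearing libraries, 5278, 4365, 5379.6, 4040.3 and 5035 in the spleen-strengthening, 4430.3, 4720.3, 4304, 4852 and 5264 in the yin-nourishing and 1937, 4836, 4390.3, 2089 and 2288 in the blood-activating ones. The 5 RN7SK-high libraries lay at 1542 to 2288 CPM and the other 15 at 4040.3 to 5379.6, so the 2 sets did not overlap. MT-ND4, which follows MT-ND4L on the same mRNA, had a log2 difference of -0.34 (SE 0.103, adjusted p = 0.0186). The other complex I mRNAs that fell were MT-ND1 (-0.81), MT-ND6 (-0.59), MT-ND2 (-0.53) and MT-ND5 (-0.37). MT-ND3 was the only mRNA with a positive difference, 0.17 (SE 0.139, adjusted p = 0.493), and it was not called. The call of MT-ND6 was lost without heat-clearing 01, and those of MT-ND4 and MT-ND5 without heat-clearing 01 or 07 or blood-activating 01 or 04, for MT-ND5 also without heat-clearing 02.

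In the ATP synthase pair, MT-ATP8 fell by 1.17 (SE 0.238, adjusted p = 0.00112) and MT-ATP6, a subunit of the proton channel, by 0.92 (SE 0.138, adjusted p = 3.37e-05). MT-ATP8 was at 3296, 4343, 15154, 8172 and 7936 CPM in the heat-clearing libraries, 16429, 14264, 16473, 7190.4 and 15586 in the spleen-strengthening, 11198, 13818, 8971, 14340.4 and 17012 in the yin-nourishing and 4737, 10378, 9103, 4994 and 6049.6 in the blood-activating ones. All RN7SK-high libraries were at 6049.6 CPM or less and all others at 7190.4 or more, while among the latter the 6 with the title letter C were at 10377.6 or less and the 9 with letter b at 11198 or more. For the cytochrome c oxidase subunits the log2 difference was -1.11 (SE 0.136, adjusted p = 2.82e-06) for MT-CO2, -0.63 for MT-CO1 (adjusted p = 0.000265) and -0.21 for MT-CO3 (adjusted p = 0.331), which was not called. MT-CYB, the complex III subunit cytochrome b, fell by 0.60 (adjusted p = 0.000859).

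MT-ND6 stood at 3704, 4626, 8776, 8603 and 7045 CPM in the heat-clearing libraries, 10509.5, 8022, 10812, 7151 and 9481 in the spleen-strengthening, 8160.5, 9439.6, 7931, 8356 and 10307 in the yin-nourishing and 6333, 8170.1, 8087, 7349 and 7440.1 in the blood-activating ones. The 2 RN7SK-high heat-clearing libraries, at 3704.5 and 4626 CPM, lay well below the rest, whereas the 3 RN7SK-high blood-activating ones, at 6333 to 7440.1, overlapped RN7SK-low libraries of other treatments. The within-treatment log2 difference was -0.97 in heat-clearing and -0.21 in blood-activating. The test of the difference between these treatments gave an unadjusted p of 0.00500 and an adjusted p of 1. Per length, MT-ND6 counts were 1.28 and 1.41 times those of MT-ND5 in heat-clearing 01 and 02 and 1.76 to 1.99 times in the other 18 libraries.

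All 14 plus-strand tRNAs had negative differences, with a median of -1.74, and 6 were called: MT-TL1 (leucine, -1.93), MT-TD (aspartate, -1.92), MT-TH (histidine, -1.83), MT-TK (lysine, -1.73), MT-TT (threonine, -1.28) and MT-TR (arginine, -1.18). The calls of MT-TH and MT-TR were lost without heat-clearing 01, 02, 03 or 09 or blood-activating 01 or 06, and that of MT-TH also without blood-activating 04. MT-TT, which had the smallest p of the 14 (adjusted p = 0.000281, SE 0.232), stood at 5.15, 5.52, 18.1, 15.4 and 14.8 CPM in the heat-clearing libraries, 15.3, 21.5, 32.1, 12.5 and 23.9 in the spleen-strengthening, 14.2, 14.5, 13.1, 21.9 and 22.7 in the yin-nourishing and 9.82, 26.3, 24.3, 13.2 and 16.01 in the blood-activating ones. Its RN7SK-high values lay below the RN7SK-low values of the same treatment, yet 13.2 and 16.01 CPM in blood-activating 08 and 09 reached into the range of the other treatments. MT-TL2, the plus-strand tRNA with the highest mean level, was at 6.002, 2.86, 48.2, 4.95 and 22.2 CPM in the heat-clearing libraries, 16.7, 49.9, 39.8, 14.4 and 51.7 in the spleen-strengthening, 10.7, 8.23, 8.64, 32.6 and 53.5 in the yin-nourishing and 9.33, 29.1, 35.3, 20.7 and 17.95 in the blood-activating ones. Heat-clearing 07, an RN7SK-low library, was at 5.0 CPM and so below RN7SK-high heat-clearing 01, and the fitted log2 difference of -1.75 was not called (adjusted p = 0.118). The rRNAs had differences of the same size, -2.03 (SE 0.986) for MT-RNR1 and -2.01 (SE 0.871) for MT-RNR2, and were not called (adjusted p = 0.190 and 0.133).

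The minus-strand tRNAs whose sequences are shown above moved in both directions. MT-TY was higher in RN7SK-high libraries by 1.01 (SE 0.170, adjusted p = 0.000139), MT-TC by 0.85 (SE 0.184, adjusted p = 0.00195) and MT-TN by 0.72 (SE 0.239, adjusted p = 0.0388) on the log2 scale. In the same libraries MT-TP fell by 1.72 (SE 0.250, adjusted p = 3.78e-05) and MT-TS1 by 0.91 (SE 0.231, adjusted p = 0.00781). MT-TQ (-1.24, adjusted p = 0.180), MT-TE (-0.28, 0.806) and MT-TA (-0.02, 0.991) were not called. The call of MT-TN was lost when any 1 of 12 libraries was left out, 5 of them heat-clearing, whereas those of MT-TC and MT-TY were kept. MT-TA lies 1 base from MT-TN in the same cluster, on the same strand.

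MT-TP, whose gene ends the minus-strand order shown above, stood at 5.94, 5.34, 27.6, 16.5 and 22.3 CPM in the heat-clearing libraries, 22.5, 31.5, 44.7, 17.7 and 38.6 in the spleen-strengthening, 23.4, 21.4, 19.7, 34.3 and 37.2 in the yin-nourishing and 9.62, 34.6, 37.95, 14.7 and 14.7 in the blood-activating ones. The RN7SK-high libraries, at 5.3 to 14.7 CPM, all lay below the others, of which the lowest was heat-clearing 07 at 16.5. MT-TS1, the most abundant tRNA, was at 56.7, 66.98, 82.3, 91.8 and 91.1 CPM in the heat-clearing libraries, 88.3, 76.4, 112, 116 and 112 in the spleen-strengthening, 62.4, 57.2, 129, 132 and 102 in the yin-nourishing and 42.6, 155, 129, 62.9 and 66.5 in the blood-activating ones. RN7SK-high libraries lay below RN7SK-low ones of the same treatment, but yin-nourishing 01 and 04 were as low. Per 1000 counts of MT-CO1, whose mRNA end it lies opposite, MT-TS1 had 1.44 to 2.29 counts in RN7SK-high and 1.19 to 2.76 in RN7SK-low libraries, which overlapped.

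The libraries were also compared by rank alone. In 22 of 37 genes every RN7SK-high library lay below every RN7SK-low library both in heat-clearing and in blood-activating, beside 10% of all rows. In 3 genes, MT-TN, MT-TC and MT-TY, every RN7SK-high library lay above, beside 12.3% of all rows. These 22 were 10 mRNAs, 9 plus-strand and 3 minus-strand tRNAs, and no rRNA, since heat-clearing 07 was as low as heat-clearing 02. The median within-treatment log2 difference of the 37 was -1.35 in heat-clearing and -0.83 in blood-activating. The test of a difference between the treatments called 0 of 37 genes by edgeR (background 0%), and at an unadjusted p under 0.05 it gave 3, MT-ND3, MT-ND6 and MT-TK, beside 4.18% of all rows. MT-ND3 was higher in RN7SK-high libraries by 0.56 in heat-clearing and stood at -0.22 in blood-activating (unadjusted p = 0.00393).

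**Figure D4:**
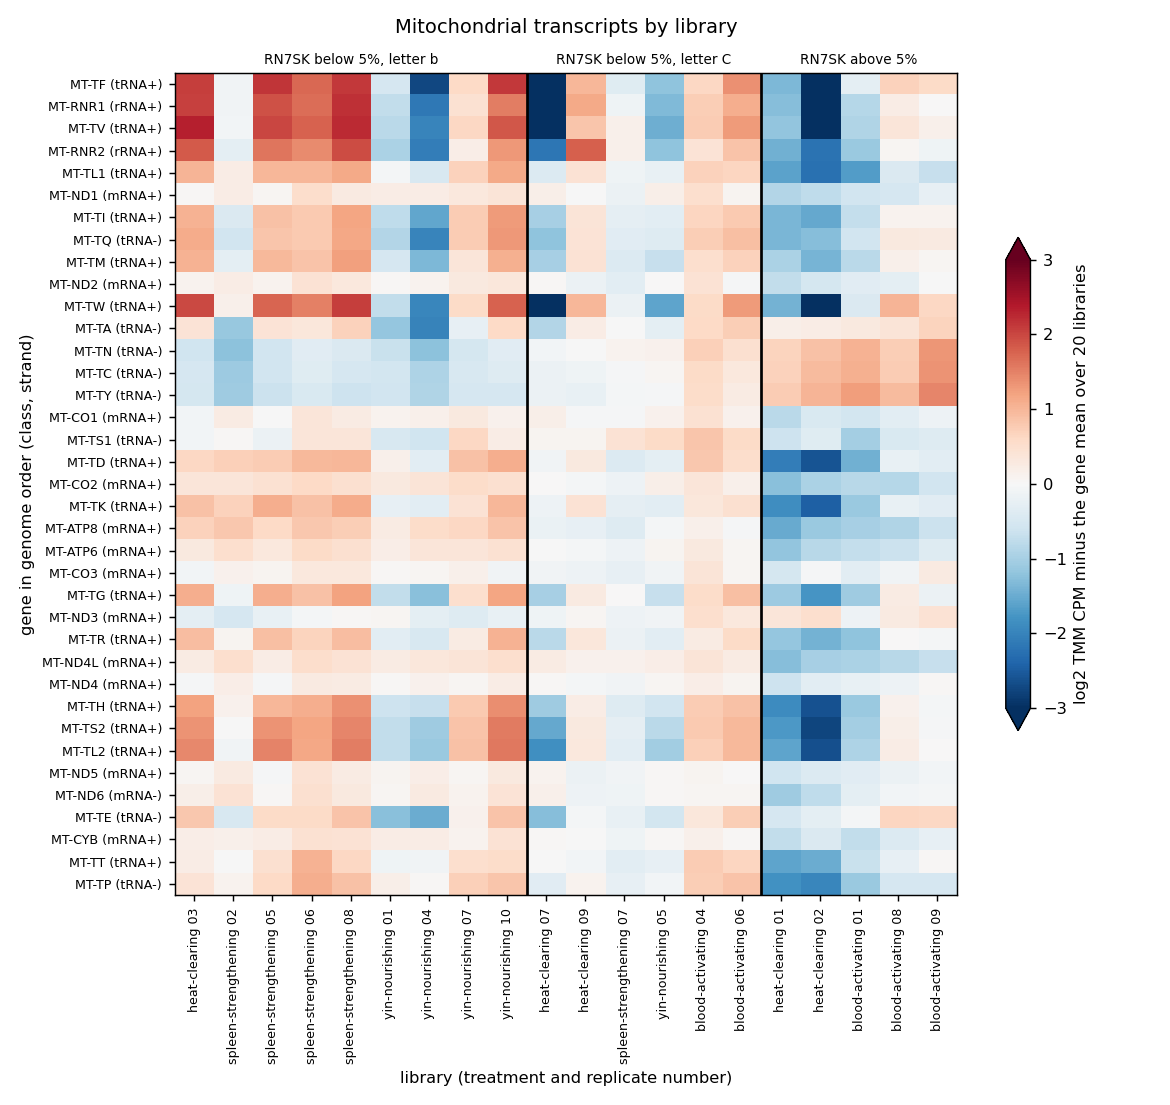
Log2 TMM-normalised CPM of each of the 37 genes minus its mean over 20 libraries, with libraries grouped by RN7SK share and title letter and genes in genome order (colours end at 3 on either side). In the 5 RN7SK-high libraries most mRNAs are blue and MT-TN, MT-TC and MT-TY red. The plus-strand tRNAs are blue in heat-clearing 01 and 02 and blood-activating 01. In blood-activating 08 and 09 some of them, such as MT-TF, MT-TV and MT-TW, lie above their gene means. Heat-clearing 07 and yin-nourishing 01, 04 and 05 are also blue for both rRNAs, MT-TF and MT-TV, and spleen-strengthening 02 lies just below these means.

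Title letter and RN7SK class were partly tied. In blood-activating the 3 RN7SK-high libraries have the letter b and the 2 others C, so the letter and the class cannot be told apart there. In heat-clearing both letters hold both classes: 01 against 03 for b, and 02 against 07 and 09 for C. Within letter b, 33 of 37 genes were lower in the RN7SK-high library, with a median log2 difference of -1.81, and within letter C 30 of 37 with a median of -0.91. Of all 24790 rows, 11830 and 11389 were lower in these comparisons, with a median of 0.06 in each. All 14 plus-strand tRNAs were lower in both (-2.70 and -1.99 in the median). MT-TY was higher in both, by 1.30 and 1.21. These are differences of single libraries, with no test.

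With the letter as a further term, the RN7SK comparison called 29 of 37 genes lower and 3 higher, beside 10.6% and 11.6% of all rows. The 29 then included all 14 plus-strand tRNAs and both rRNAs, MT-RNR1 at -3.07 (adjusted p = 0.0194) and MT-RNR2 at -2.74 (adjusted p = 0.0305). For the letter itself, C against b, edgeR called 1 gene lower, MT-ATP8 (-0.63, adjusted p = 0.0438), and 3 higher, MT-TN (0.61, 0.0483), MT-TC (0.49, 0.0464) and MT-TY (0.47, 0.0437). Of all rows, 0.448% were lower and 0.278% higher. This comparison was added after the data were seen, and its calls rest on single libraries: 0 genes were called in either direction without any 1 of 15 libraries, that is any but heat-clearing 01 and 02, spleen-strengthening 02, yin-nourishing 01 and blood-activating 01.

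Ratios between mitochondrial genes of 1 library do not depend on how the library is scaled, so they show which members' counts differed unequally. For MT-ATP8 and MT-ATP6, which overlap on 1 shared mRNA, unequal counts need not mean unequal amounts of RNA. The genes in them were chosen after their values were seen. MT-TN, MT-TC and MT-TY together had 0.460 to 0.976 counts per count of the other 5 minus-strand tRNAs in the 9 RN7SK-low libraries with letter b, 0.806 to 1.10 in the 6 with letter C and 1.90 to 3.50 in the 5 RN7SK-high libraries. Only the first 2 ranges overlapped. The counts of MT-TY per count of MT-TP were 0.873 to 1.53, 1.67 to 2.89 and 6.93 to 20.2 in the same order, with no overlap between the 3 kinds of library. Per library this ratio was 15.2, 20.2, 1.33, 2.86 and 2.05 in the heat-clearing, 1.13, 1.09, 0.873, 2.89 and 0.890 in the spleen-strengthening, 1.53, 1.32, 2.65, 1.10 and 1.01 in the yin-nourishing and 13.3, 2.25, 1.67, 6.93 and 10.02 in the blood-activating libraries.

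MT-CO2 per MT-CO3 was 2.75 to 3.72, 2.45 to 3.03 and 1.33 to 1.74, so that RN7SK-high libraries stood apart while the letters overlapped. The ratio of MT-ATP8 to MT-ATP6 set the letters apart: 0.607 to 0.771 with letter b, 0.493 to 0.538 with letter C and 0.463 to 0.492 in RN7SK-high libraries, of which 4 carry the letter b. Here the gap between the letters was wider than that between letter C and RN7SK-high. All 8 minus-strand over all 14 plus-strand tRNAs came to 0.762 to 1.77, 1.41 to 3.02 and 2.40 to 10.7, and these ranges overlapped.

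**Figure D5:**
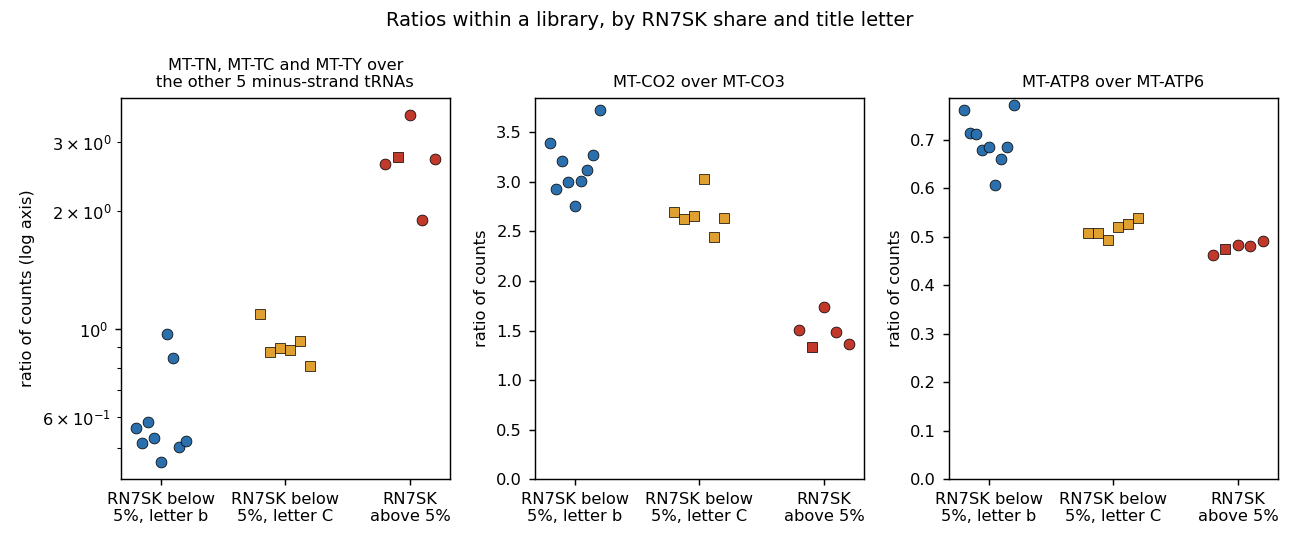
Ratios of counts within each library, by RN7SK share and title letter (circles: letter b, squares: C): MT-TN, MT-TC and MT-TY over the other 5 minus-strand tRNAs (log axis), MT-CO2 over MT-CO3 and MT-ATP8 over MT-ATP6. RN7SK-high libraries are apart in the first 2 panels (1.90 to 3.50 and 1.33 to 1.74), and in the third the letter b libraries with low RN7SK (0.607 to 0.771) are.

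Nuclear genes that copy, cut and modify mitochondrial RNA were described from 3 lists of 52 genes, all of which passed the filter. None was called in any of the 6 pairs of treatments. In RN7SK-high against RN7SK-low libraries 12 of 52 were lower and 6 higher, beside 9.69% and 10.5% of all rows, and 25 of 52 had negative differences, with a median of 0.07 beside 0.01 over all rows. In transcription and replication 3 of 12 were lower and 1 higher. The higher one, POLG, the catalytic subunit of the mitochondrial DNA polymerase, stood at 26.1 against 13.6 CPM (means of 5 RN7SK-high and 15 RN7SK-low libraries), a log2 difference of 0.81 (SE 0.152, adjusted p = 0.000354). POLG2, the accessory subunit of the same polymerase, was among the lower ones at 6.82 against 10.2 CPM. Its log2 difference was -0.59 (edgeR, SE 0.160, adjusted p = 0.00978). POLRMT, the mitochondrial RNA polymerase, was not called at 0.45 (SE 0.166, adjusted p = 0.0598). TFAM, which packages mitochondrial DNA and is needed to start transcription, fell to 35.2 against 43.4 CPM, a log2 difference of -0.34 (SE 0.106, adjusted p = 0.0253).

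In RNA processing and stability 7 of 24 were lower and 3 higher. FASTKD2, an RNA-binding protein needed for the large-subunit rRNA, stood at 46.7 against 87.2 CPM with a log2 difference of -0.85 (SE 0.0949, adjusted p = 8.60e-07). TRNT1, which adds the CCA end to tRNAs, had 12.6 against 21.7 CPM and -0.80 (SE 0.104, adjusted p = 5.89e-06). ELAC2, which cuts the 3′ ends of tRNAs from their precursors, was higher at 26.5 against 17.3 CPM, 0.55 (SE 0.136, adjusted p = 0.00442), and FASTK, needed for the MT-ND6 mRNA, at 35.4 against 23.6 CPM, 0.54 (SE 0.135, adjusted p = 0.00498). PRORP, which cuts the 5′ ends, was not called at 0.08 (SE 0.340, adjusted p = 0.944), nor was the mRNA-stabilising LRPPRC at -0.13 (SE 0.0860, adjusted p = 0.349). In rRNA and tRNA modification 2 of 16 were lower and 2 higher, and among the lower ones NSUN2, a cytosine methyltransferase of tRNAs, stood at 28.8 against 44.1 CPM with -0.58 (SE 0.0873, adjusted p = 3.60e-05).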

How the data were processed

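RNA was sequenced in 20 samples, 5 for each of 4 labelled treatments. The deposited table holds counts: whole numbers with unequal column totals, not normalised by the authors. The submitters' processing notes name HISAT2, StringTie and the build hg38, without versions. The annotation, strand setting, any filter and any removal of mouse reads are not stated by these notes or labels. Positions, lengths and tRNA sequences came from GENCODE release 29 on hg38, and anticodons were located in a 7-base loop closed by the best-paired stem and checked against the mitochondrial code.

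Counts were scaled by TMM and compared in R 4.3.3 by edgeR 4.0.16 (robust quasi-likelihood F-tests, 20 samples in 1 fit, edgeR's filter with a minimum count of 10, 24790 rows). Benjamini-Hochberg adjustment of p ran over all tested rows within a comparison, with a threshold of 0.05. The RN7SK comparison had treatment as a covariate. Differences between RN7SK classes within 1 treatment or letter used log2 CPM with a prior count of 2. Class sums and ratios carry no test. The strict filter asked for 1 CPM in 5 samples. DESeq2 1.42.0 and limma 3.58.1 were other tools. Limma voom was run with sample quality weights, which give whole libraries unequal weight. On simulated data with 200 changed genes, the RN7SK comparison recovered 57% of changes of 1 and 92% of changes of 2 on the log2 scale (23197 genes, 4.49% of calls false), and spleen-strengthening against blood-activating 68% and 88% (23107 genes, 3.7% false). The changed genes were drawn only from rows above a minimum mean count. The simulated spread was estimated with an RN7SK term, and the simulated data held no RN7SK difference, unlike the data fitted for the treatment pair. The rates for that pair may therefore be too high for the real data.

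The members and gene lists were chosen with earlier results of these data known. Values in every sample are given for both rRNAs, MT-ND6, the mRNAs highest and lowest per length, the highest tRNA of each strand, and the member of each class and strand with the smallest p among the treatments and for RN7SK. MT-TN and MT-TC were added after their values were seen, TFAM, POLRMT, PRORP and LRPPRC for their role, and POLG2 as the partner subunit of POLG. Alternatives were other scalings, filters and tools, a term for the title letter, a block for the replicate number, RN7SK-high libraries left out or given a term, each pair alone, other denominators for class sums, and each library left out in turn. The heat-clearing and blood-activating libraries alone, and the comparison of title letters, were added after seeing the data. No pair of columns held identical counts.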

Additional observations from a re-analysis of the deposited data

Results flagged for a closer look

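Of 68 groups of 5 values checked for a sample far from the others, 1 had such a sample, and chance marks about 1 in 20 groups. MT-ATP8 in spleen-strengthening 07 was at 7190 CPM, while the other 4 libraries of the treatment were at 14300 to 16500. Spleen-strengthening 07 is the only library of its treatment with the title letter C and had the highest RN7SK share, 3.02%, among the 15 RN7SK-low libraries. Its MT-ATP6 level was 14592 CPM, against 20044 to 24304 in the other 4.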

How the results depend on the processing

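The RN7SK comparison called 19 members lower and 3 higher, and 14 to 21 lower and 2 to 3 higher when a library was left out (14 without heat-clearing 01). With the title letter as a term it called 29 lower, and with a replicate block 7 lower (MT-ND4L at -1.19, MT-CO2 at -0.97, MT-ATP6 at -0.81, MT-TP at -1.44, MT-TL1 at -1.67, MT-TD at -1.87 and MT-TK at -1.61) and 1 higher (MT-TY at 1.14). Other scalings, filters, tools and the heat-clearing and blood-activating libraries alone kept both counts within 1.5 times, and no called member changed sign. MT-TA and MT-TE, which were not called, did. No member was called among the 4 treatments, and 3 were with DESeq2, 8 with limma voom and 0 to 4 with a library left out. For spleen-strengthening against blood-activating, DESeq2 called 5 and limma voom 10, with 0 to 3 when a library was left out. For yin-nourishing against blood-activating these numbers were 4, 12 and 0 to 3. In the other 4 pairs no alternative called a member. The letter comparison called 1 lower and 3 higher. It called 3 lower with upper quartile scaling or the strict filter, 0 lower without a filter, 14 lower with DESeq2, 0 higher with limma voom, 0 in both directions with the replicate block, and 0 to 3 in each direction with a library left out. Apart from the RN7SK comparison with a letter term, shares of all rows called are not given for the alternatives. Their counts of members therefore have no background. Same-numbered samples of different treatments did not deviate together (12 pairs, r from -0.05 to 0.17, 1 above 0.1), so the numbers were not taken to pair samples. Over the column total without RN7SK and mitochondrial counts, the mRNA level came to 19.95, 27.34, 26.34 and 21.47% of that total for heat-clearing, spleen-strengthening, yin-nourishing and blood-activating, and the tRNA level to 629.8, 768.3, 607.6 and 862.9 CPM in the same order. Depth limits the scarce tRNAs most: the lowest count of any member in a library was 17, for MT-TF in heat-clearing 02.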

Other observations

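The nuclear genome carries old copies of mitochondrial DNA, and 395 rows of the table are such pseudogenes. Together they held 2.47% as many counts as the 37 mitochondrial genes, and 3 of them, in 1 stretch of chromosome 1, held 99.0% of these. MTND2P28 (chromosome 1, 629640 to 630683, plus strand, hg38) is 98.4% identical to MT-ND2, MTCO1P12 (631074 to 632616) 98.6% to MT-CO1 and MTATP6P1 (633696 to 634376) 98.5% to MT-ATP6. Reads of gene and copy are near-identical, and how the authors' counting shared them out is not stated, so the levels of both are uncertain.

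The copies did not keep a fixed share of their parent genes. Counts of MTND2P28 per count of MT-ND2 were 0.520 to 0.588 in RN7SK-low libraries with the title letter b, 0.422 to 0.457 in those with C and 0.240 to 0.298 in RN7SK-high libraries, with no overlap. MTATP6P1 had 7.88 to 11.1, 13.6 to 16.2 and 5.93 to 8.60 counts per 1000 of MT-ATP6. MTCO1P12 had 37.4 to 49.5, 20.9 to 31.1 and 33.2 to 53.3 per 1000 of MT-CO1. In the RN7SK comparison (edgeR) the log2 difference was -1.35 for MTND2P28 (SE 0.204, adjusted p = 5.02e-05), -1.87 for MTATP6P1 (SE 0.122, adjusted p = 3.53e-10) and -0.12 for MTCO1P12 (SE 0.214, adjusted p = 0.826). Adding the copies' counts to MT-ND2, MT-CO1 and MT-ATP6 was not tried.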
